A study of Mus musculus with 28 samples.

Results

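The mRNAs bound to microglial ribosomes in the resting motor cortex of the mouse were set against the mRNAs of the whole tissue, in mice that had stayed in their home cage. Of the 28 libraries of the series, 14 met this description. They came from 7 mice, and each mouse gave 1 library by translating ribosome affinity purification (TRAP) and 1 library from total lysate. All 14 libraries carried the same genotype, Cx3CR1-Cre/TRAPfl, so that the lysate served as the control for the precipitate and no mouse without the tag was used as one. There were 4 females and 3 males, of which 4 mice belonged to cohort 1 and 3 to cohort 2 (the labels call the cohorts batches). The other 14 libraries came from mice that had run on a rotarod for 1 h and were used here only where named. Ages were not given in the sources used here.

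In TRAP, Cre recombinase switches on a tagged ribosomal protein in 1 cell type, and an antibody to the tag pulls down ribosomes together with the mRNA on them. Cx3cr1, whose promoter drives Cre here, encodes the receptor for the chemokine fractalkine. In the brain it is made by microglia, the resident macrophages of the tissue, but macrophages at the borders of the brain and some blood monocytes make it too, so that the tag is not expected in microglia alone. Microglia survey synapses and vessels, take up debris through lectin, Fc and complement receptors, and break it down in lysosomes. A total lysate of cortex is dominated by mRNA of neurons, astrocytes and oligodendrocytes. The labels name microglia as the cell type of every library, lysate included.

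Total counts ran from 104405588 to 157669964 per library in TRAP and from 84399875 to 169315558 in lysate, and 15143 to 16285 symbols in TRAP and 16589 to 17847 in lysate had at least 1 count. Levels below are CPM, the usual count scaled to a fixed library size, with the TMM factors of edgeR applied to that size. Where levels of different genes are compared, CPM was divided by the exon length in kilobases unless stated otherwise. In all 14 libraries the summed level of Y-linked genes was on the side of the labelled sex. The cohorts stood apart: TRAP levels of the 2 cohorts did not overlap for 51.4% of genes, and lysate levels did not for 64.7%. TRAP and lysate of a mouse were compared within the mouse, which removes a shift common to both.

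The 4 genes by which microglia are recognised were high in every TRAP library and low in every lysate. Cx3cr1 (chr9:119901616-120069879, GRCm38) was at 1081 to 2278 CPM (median 1739) in TRAP and 11.0 to 18.5 CPM (median 13.9) in lysate. P2ry12, the receptor by which microglial processes sense ADP, was at 1114 to 6106 CPM (median 3124) and 22.5 to 96.8 CPM (median 64.0). Tmem119, a membrane protein that sets microglia apart from most other macrophages, was at 1285 to 5549 CPM (median 2184) and 16.2 to 52.1 CPM (median 25.8). For each of these genes the lowest TRAP value lay more than 10-fold above the highest lysate value. Csf1r, the receptor for the growth factor on which microglia depend, was at 2023 to 8679 CPM (median 3448) and 33.2 to 98.6 CPM (median 43.6), and its exons share 873 bases with Hmgxb3 on the opposite strand. The log2 fold of TRAP over lysate was 6.90 ± 0.18 (SE) for Cx3cr1, 5.53 ± 0.21 (SE) for P2ry12, 6.58 ± 0.16 (SE) for Tmem119 and 6.30 ± 0.14 (SE) for Csf1r, with edgeR adjusted p-values from 2.57e-11 to 5.50e-10. Rpl10a, the protein that carries the tag in widely used TRAP alleles (the labels do not say which protein is tagged here), was at 48.8 to 104 CPM (median 74.6) in TRAP and 20.0 to 28.5 CPM (median 23.3) in lysate, a log2 fold of 1.55 ± 0.14 (SE) with an adjusted p of 1.35e-06.

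Across all genes, 15867 of 24391 symbols passed the filter on low counts and were tested with edgeR's quasi-likelihood F test, with the mouse as a block. At an adjusted p under 0.05, 10382 genes (65.4%) were called: 4893 genes (30.8%) were higher in TRAP and 5489 (34.6%) were lower. More than 2-fold, 3279 (20.7%) were higher and 3488 (22.0%) lower, and 527 (3.32%) were more than 32-fold higher. All 7 TRAP libraries lay above all 7 lysate libraries in 2589 genes (16.3%) and below them in 1532 (9.66%). In cohort 1 alone 4350 genes were higher and 4258 lower, and in cohort 2 alone 4238 and 4309. Of the 10382 genes called, 8201 were also called in cohort 1 alone and 7962 in cohort 2 alone, and 0 of those changed direction in either cohort. A change of direction was hardly possible in this count. It covers only genes called in both fits, and each cohort is part of the 7 mice. With library totals in place of TMM factors, 3404 genes were higher and 7951 lower. That scaling moved the median of all genes by -0.49 on the log2 scale, and upper-quartile factors moved it by -0.20. In both fractions fewer cells of a type and less RNA per cell cannot be told apart. Sets of genes are therefore read below against the values of all genes tested, whose median log2 fold was -0.22.

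**Figure D1:**
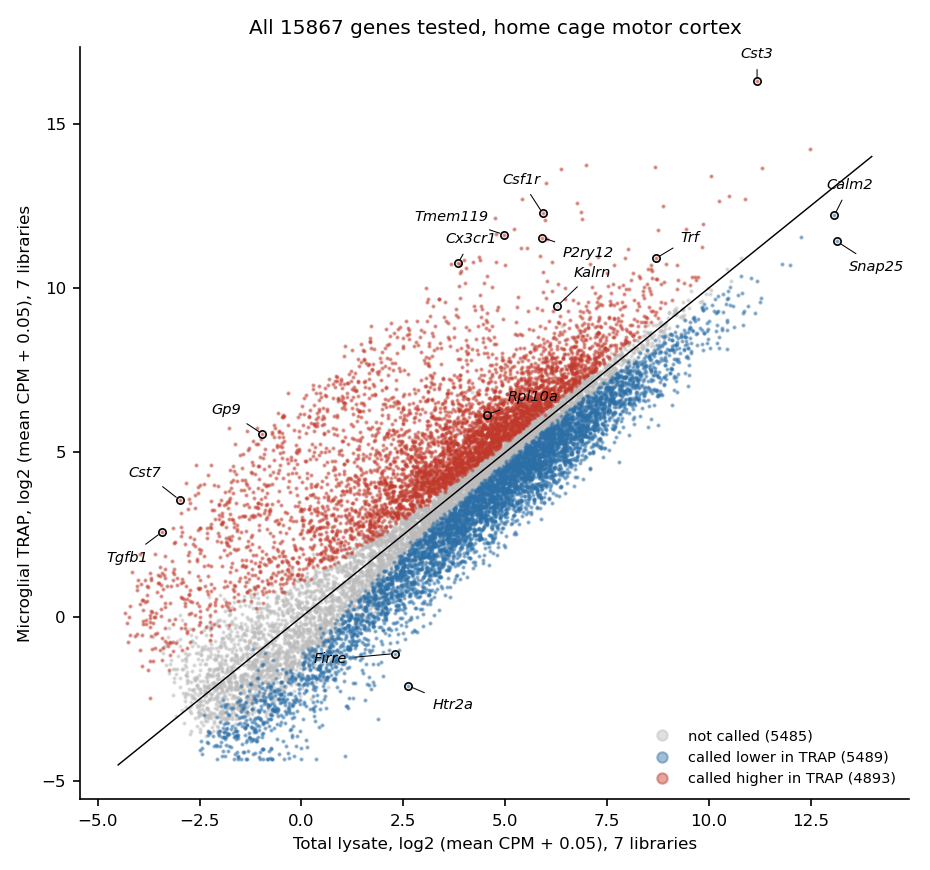
Each point is 1 of the 15867 genes tested, with its mean level in 7 total lysate libraries on the x axis and in 7 TRAP libraries on the y axis, both as log2 of CPM plus 0.05. Red points were called higher in TRAP (4893) and blue points lower (5489), grey points were not called, the line marks equal levels, and ringed genes are named in the text. The higher genes reach much farther from the line than the lower ones, which lie in a band beneath it.

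PU.1, the product of Spi1 and a factor that macrophages need to form, binds DNA at purine-rich sites around the letters GGAA. The 250 bases upstream of the start were therefore searched on both strands for AGGAAGT, a PU.1-type sequence, and for CGGAAGT, the form that many other factors of the same ETS family bind. The 2 searches share the letters GGAAGT and cannot match at the same position on the same strand. For single named genes, entries on the chromosome that carries Csf1r were left out, so Csf1r is not among those counted next. Of the 53 genes named for their level, enrichment or depletion, 37 had a remaining entry in the RefSeq table (GRCm38.p6), and 6 of these held AGGAAGT. They are printed here because all 6 were among the strongly enriched genes, with the motif in capitals (ACTTCCT where it lies on the other strand). Most of the 37 had been named for a high level or enrichment, so the 6 say little about depleted genes.
P2ry12 (chr3:59262986-59263235, minus strand): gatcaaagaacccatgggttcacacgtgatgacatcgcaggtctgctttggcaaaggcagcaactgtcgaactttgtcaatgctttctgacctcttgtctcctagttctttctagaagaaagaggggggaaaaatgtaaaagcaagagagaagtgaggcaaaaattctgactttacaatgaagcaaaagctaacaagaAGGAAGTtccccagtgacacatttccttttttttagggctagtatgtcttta
C1qb (chr4:136886201-136886450, minus strand): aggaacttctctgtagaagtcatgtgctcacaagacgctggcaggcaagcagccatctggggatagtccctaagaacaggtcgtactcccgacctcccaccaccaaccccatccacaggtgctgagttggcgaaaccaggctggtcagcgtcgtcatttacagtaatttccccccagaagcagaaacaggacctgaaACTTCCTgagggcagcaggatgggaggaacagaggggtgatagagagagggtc
C1qc (chr4:136892915-136893164, minus strand): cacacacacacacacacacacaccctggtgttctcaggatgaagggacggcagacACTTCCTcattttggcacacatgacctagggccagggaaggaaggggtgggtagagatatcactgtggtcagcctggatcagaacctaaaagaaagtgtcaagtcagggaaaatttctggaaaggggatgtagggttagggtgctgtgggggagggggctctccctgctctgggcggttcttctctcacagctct
Cst7 (chr2:150570165-150570414, plus strand): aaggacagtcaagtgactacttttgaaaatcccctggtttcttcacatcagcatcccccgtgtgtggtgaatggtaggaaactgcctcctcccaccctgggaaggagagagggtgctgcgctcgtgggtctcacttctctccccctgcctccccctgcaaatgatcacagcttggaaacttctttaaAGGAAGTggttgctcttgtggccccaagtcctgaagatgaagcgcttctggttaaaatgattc
Nlrp1a (chr11:71144705-71144954, minus strand): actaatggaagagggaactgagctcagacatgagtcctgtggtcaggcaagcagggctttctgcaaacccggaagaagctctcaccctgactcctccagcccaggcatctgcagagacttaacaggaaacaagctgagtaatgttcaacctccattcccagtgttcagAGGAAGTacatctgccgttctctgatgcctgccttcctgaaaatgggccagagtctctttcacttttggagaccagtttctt
Fcgr4 (chr1:171018676-171018925, plus strand): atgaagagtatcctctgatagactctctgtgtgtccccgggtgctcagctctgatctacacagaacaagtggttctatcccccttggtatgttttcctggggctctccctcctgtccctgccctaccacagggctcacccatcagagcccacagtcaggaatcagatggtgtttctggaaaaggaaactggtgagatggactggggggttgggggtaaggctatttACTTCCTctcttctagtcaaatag

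Over all genes tested, AGGAAGT stood in 20.9% of 497 promoter entries of genes called more than 32-fold higher in TRAP. It stood in 9.01% of 2687 entries of genes called 2-fold to 32-fold higher, in 6.22% of 4968 entries of genes not called and in 6.06% of 3319 entries of genes called more than 2-fold lower. Of all 32851 promoters in the table, 7.69% held it. CGGAAGT showed another order and stood in 3.02% of entries of genes called more than 32-fold higher, in 7.70% of those called 2-fold to 32-fold higher, in 9.06% of those not called and in 4.92% of all promoters, and 4.85% of entries of genes called more than 2-fold lower held it. The same groups differed in base composition, with a median GC content of 51.6% in the first, 59.6%, 59.2% and 58.4% in the next ones and 52.4% in all promoters, and its part in these shares was not tested. A match says only that the letters are present. The window of Cx3cr1, whose log2 fold was 6.90, held neither motif, and that of P2ry12, whose log2 fold was 5.53, held AGGAAGT. Spi1 mRNA itself was at 168 to 595 CPM (median 263) in TRAP against 1.42 to 5.42 CPM (median 2.72) in lysate.

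Per length, 1 mRNA stood far above all others in microglial TRAP. Cst3, which encodes cystatin C, a secreted inhibitor of cysteine proteases, had 93172 ± 18055 CPM per kilobase of exon (SD, n = 7), from 68199.7 to 120817 (median 94379) in TRAP against 2323 to 3404 (median 2531) in lysate. It took 5.33% to 7.99% of all counts of a TRAP library. The next genes were C1qb at 11485 ± 4620.3, Ctss at 10028 ± 4484, Tmsb4x at 9370.2 ± 4427, C1qc at 7779 ± 1643 and Tyrobp at 7648 ± 866 in the same unit. From C1qb down to the last of the 20, the means of neighbours in this order differed by less than the larger of their SDs, and only Cst3 stood apart from the next gene. C1qb and C1qc encode chains of C1q, which opens the classical complement pathway, Ctss a lysosomal protease that trims antigen for MHC class II, Tmsb4x a peptide that binds actin monomers, and Tyrobp the adaptor through which the receptor Trem2 signals.

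Among the other 14 of the 20 highest were, in falling order of their mean, Ctsd, B2m, Sepp1, C1qa, Fcer1g, Calm2, Apoe, Rps29, Itm2b, Laptm5, Sparc, Cd81 and Cyba, whose means ran from 6204 to 2097. Ctsd encodes a protease of the lysosome and Laptm5 a protein of its membrane, B2m the light chain of MHC class I, C1qa a chain of complement C1q, Fcer1g a signalling chain of Fc receptors, Apoe and Sepp1 carriers of lipid and selenium, Rps29 a ribosomal protein, Sparc a matrix protein, Cd81 a tetraspanin and Cyba a subunit of NADPH oxidase. Together the 20 genes took 14.8% to 19.2% of the counts of a TRAP library and 1.59% to 2.92% of those of a lysate library. The 20 were picked for a high TRAP level, which favours a gap between the groups. In 19 of the 20, all 7 TRAP libraries lay above all 7 lysate libraries, which was so for 16.3% of all genes tested. Calm2, one of the genes for calmodulin, was the exception. It had 1211 to 5758 (median 5523) CPM per kilobase in TRAP and 2088 to 11922 (median 9341) in lysate, where it was the highest gene of all, and its log2 fold was -0.82 ± 0.14 (SE) with an edgeR adjusted p of 3.36e-04. Lysate and TRAP shared 3 of their 20 highest genes. The cohorts moved the values within this list: TRAP levels of the 2 cohorts did not overlap for 16 of the 20 genes, beside 51.4% of all genes, and 16 of the 20 remained among the 20 highest in each cohort taken alone. Exons of Ctsd share 670 bases with the model Gm49369 on the same strand and those of Sepp1 share 439 with Ccdc152, so that their counts are less certain.

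**Figure D2:**
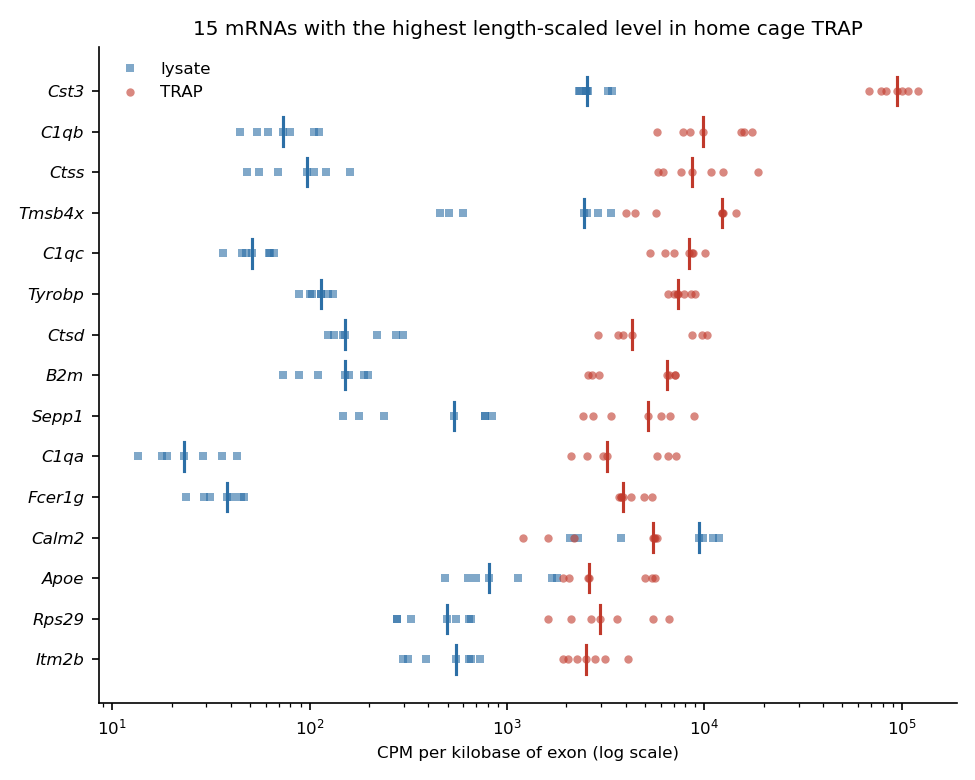
The 15 genes with the highest mean level per exon length in TRAP, each point 1 library (7 TRAP, red circles, and 7 lysate, blue squares) on a log axis of CPM per kilobase of exon, with bars at the medians. Cst3 lies from 68199.7 to 120817 (median 94379) in TRAP, above every library of the other genes (highest 18636, Ctss), and Calm2 is the gene whose lysate median is above its TRAP median.

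Most of the largest enrichments were found for genes with few reads in the whole tissue. At a mean of at least 2 CPM over the 14 libraries, the 15 largest log2 folds ran from 7.22 to 8.16, and all 15 genes were higher in TRAP in 7 of 7 mice. Cst7, an inhibitor of cathepsins inside the cell, was at 7.49 to 18.1 CPM (median 12.4) in TRAP and 0 to 0.346 CPM (median 0.00929) in lysate, a log2 fold of 8.16 ± 0.75 (SE) with an adjusted p of 1.60e-06. Cmklr1, the receptor of the chemoattractant chemerin, was at 36.3 to 71.8 CPM (median 52.1) and 0.134 to 0.448 CPM (median 0.195), a log2 fold of 7.84 ± 0.25 (SE). H2-Ob, which tempers the loading of peptide onto MHC class II, was at 37.4 to 64.4 CPM (median 55.9) and 0.0192 to 1.26 CPM (median 0.341). The highest lysate value of 13 of the 15 was at most 1.41 CPM, so that the size of these folds rests on few lysate reads, the exceptions being C1qa and Laptm5. The lowest TRAP library was above the highest lysate library for all 15, beside 16.3% of all genes tested. Because the 15 were picked for the size of their fold, this and the count of mice add no separate support.

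Others of the 15 were receptors of innate immunity: Clec4a1 (8.12), the lectin Cd209b (7.68) and the Fc receptor Fcgr4 (7.39), all as log2 folds. The value for Clec4a1 rests on 2 lysate reads in cohort 1 against 168 in cohort 2, and ran from 6.24 to 12.2 over the fits. C1qa (7.34) and Laptm5 (7.22) combined a strong enrichment with a place among the 20 highest levels. Nlrp1a (7.87) encodes an inflammasome sensor, Csf2rb2 (7.30) a receptor chain for interleukin 3, Tspan32 (7.45) a tetraspanin of blood cells and Cbr2 (7.33) a carbonyl reductase that also marks macrophages at the borders of the brain. Tgfb1, the cytokine on which the microglial state depends, had a log2 fold of 7.74 ± 0.71 (SE), yet its level was low, at 1.25 to 13.0 CPM (median 3.86) in TRAP and 0 to 0.166 CPM (median 0) in lysate. Duoxa1 (7.60), a maturation factor of dual oxidase, shares 682 exon bases with Duoxa2. Tmem8c, known from muscle as the fusion protein myomaker, was a further member of the group and reached 23.7 to 77.6 CPM (median 41.8) in TRAP against 0 to 0.810 CPM (median 0.271) in lysate, a log2 fold of 7.49 ± 0.50 (SE) with an adjusted p of 9.85e-08.

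Macrophage markers were higher in TRAP throughout. All 30 markers of homeostatic microglia were higher in TRAP, beside 30.8% of all genes tested, with a median log2 fold of 6.48 (per mouse 6.09 to 6.66). Their summed level was 122363 to 219058 CPM in TRAP and 3083 to 4059 CPM in lysate. All 13 tested markers of border-associated macrophages were higher as well, at a median of 6.29. Their sum was far lower, at 1199 to 1842 CPM in TRAP and 20.4 to 34.8 CPM in lysate. Both sums are not scaled to length or number of genes. Lyve1, a hyaluronan receptor, was at 24.4 to 92.4 CPM (median 42.7) in TRAP, and the lectin Cd209f at 44.9 to 107 CPM (median 89.0). How much of any shared gene came from border-associated macrophages was not tested.

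Of 22 genes known to increase in microglia of diseased or ageing brain, 17 were higher in TRAP (77.3%) and 2 lower (9.09%). These shares stand beside 30.8% and 34.6% of all genes. Of the 22, 3 were not called, and the median was 4.20. Cst7, Ccl3 (6.41), Cd52 (6.35) and Ccl4 (6.08) had the largest log2 folds. Ccl3 was at 5.70 to 19.1 CPM (median 11.4) in TRAP and Ccl4 at 11.0 to 17.8 CPM (median 13.9). In CPM not scaled to length, both were below Cx3cr1, P2ry12, Tmem119 and Csf1r in every TRAP library. Gpnmb (-1.21 ± 0.48 SE, adjusted p = 0.0422) and Ank (-0.69 ± 0.13 SE, adjusted p = 6.74e-04) went the other way, and the call of Gpnmb was lost in 6 of 18 alternatives.

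Innate immune receptors were higher in TRAP without exception. All 25 Fc and lectin receptors tested were higher in TRAP (median log2 fold 6.05), and so were all 23 Toll-like receptors and their adaptors (5.37). Of all genes tested, 30.8% were higher. Fcgr1, the high-affinity receptor for IgG, was at 204 to 333 CPM (median 231) in TRAP and 1.22 to 2.59 CPM (median 2.15) in lysate. Siglec1, a receptor for sialic acid, was at 4.30 to 18.5 CPM (median 10.9) and 0 to 0.344 CPM (median 0.0192). Ly86, a partner of the Toll-like receptor homologue Cd180, was at 1041 to 2865 CPM (median 1985) against 10.4 to 29.5 CPM (median 25.2). In CPM not scaled to length, it was the highest of the named members of its list. Tlr13 (6.48), which senses bacterial ribosomal RNA, Tlr1 (6.26) and the adaptor Ticam2 (7.00) had log2 folds above 6, though exons of Ticam2 share 838 bases with Tmed7.

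Antigen presentation, cytokine receptors and blood-lineage transcription factors followed. Their counts stand beside 30.8% higher and 34.6% lower among all genes tested. Of 18 MHC genes tested 17 were higher and 0 lower (median 5.00), among them Cd74, the chaperone of MHC class II, at 173 to 931 CPM (median 508) in TRAP and 2.03 to 8.96 CPM (median 3.52) in lysate. Of 32 cytokines and receptors 27 were higher and 2 lower (median 4.18). Tnfrsf1b (6.39), Il6ra (6.38) and Il21r (6.28) had the largest log2 folds among members at a mean of 1 CPM or more, and Tgfbr1, a receptor of Tgfb1, was at 626 to 2355 CPM (median 1230.5) against 11.1 to 35.7 CPM (median 25.4). The 2 lower ones were Il33 (-1.94 ± 0.17 SE), an alarmin made by astrocytes and oligodendrocytes, and Il1rap (-1.86 ± 0.32 SE), a receptor chain. Of 28 blood-lineage transcription factors 23 were higher and 4 lower: Lyl1 (7.19), Spi1 (6.82), Ikzf1 (6.56) and Hhex (6.41) led, while Runx2 (-1.20), Bhlhe40 (-1.11) and Etv1 (-0.51) were lower, as was Ikzf3 at a mean under 1 CPM.

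In complement, chemokines, purinergic signalling and lysosomes a few members were on the lysate side. Of 23 complement genes 15 were higher (65.2%) and 2 lower (8.70%), beside 30.8% and 34.6% of all genes. C5ar2, a receptor for the fragment C5a, was at 20.4 to 41.4 CPM (median 29.1) against 0.0417 to 0.716 CPM (median 0.288). The 2 lower ones were Clu (-1.34 ± 0.14 SE), a chaperone secreted by astrocytes, and Serping1 (-1.10 ± 0.37 SE), the C1 inhibitor, whose call was lost in 5 of 18 alternatives. Of 31 chemokines and receptors 21 were higher (67.7%) and 3 lower (9.68%). The 3 lower genes were Cx3cl1 (-1.82 ± 0.22 SE), the fractalkine that neurons present to Cx3cr1, with Ccl25 (-1.69) and Ccl27a (-1.58). Cx3cl1 was at 121 to 221 CPM (median 163) in TRAP and 303 to 1168 CPM (median 454) in lysate, the reverse of its receptor.

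Of 25 purinergic genes 13 were higher (52%) and 9 lower (36%), beside 30.8% and 34.6% of all genes. Their median was 0.39 and fell to -0.10 with library totals. The receptors P2ry6 (6.43), P2ry13 (5.83) and Adora3 (6.15) were on the TRAP side with P2ry12. The largest falls at a mean of 1 CPM or more were those of Nt5e (-2.48), which makes adenosine, Enpp2 (-2.34), Entpd3 (-2.17) and Adk (-1.27), which removes adenosine. Of 30 lysosomal genes 29 were higher and 1 lower (median 3.31). Cd68 was at 467 to 1052 CPM (median 645) in TRAP against 9.50 to 13.9 CPM (median 11.2), the protease activator Ctsc at 289 to 471 CPM (median 368) against 5.69 to 10.1 CPM (median 6.57), and Grn, whose product progranulin is needed for lysosome function, at 913 to 4159 CPM (median 1403) against 22.1 to 79.8 CPM (median 28.6). Gaa, which degrades glycogen in the lysosome, was the 1 lower member, with a log2 fold of -0.43 ± 0.12 (SE) and an adjusted p of 0.00880, and it was lower in 7 of 7 mice.

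The largest falls were smaller in size than the largest rises, and neuronal mRNA remained measurable in TRAP. At a mean of at least 2 CPM, the 15 largest falls among named genes ran from -6.97 to -3.65 (4 unnamed models were passed over), and these genes had medians of 0.0159 to 0.903 CPM in TRAP. Firre, a long noncoding RNA that stays in the nucleus, was at 0 to 2.33 CPM (median 0.0159) in TRAP and 2.47 to 6.90 CPM (median 5.41) in lysate, a log2 fold of -6.97 ± 1.41 (SE) with an adjusted p of 9.67e-04. Htr2a, the serotonin 2A receptor of cortical pyramidal neurons, was at 0 to 0.346 CPM (median 0.180) and 3.53 to 8.87 CPM (median 5.79), a log2 fold of -5.25 ± 0.70 (SE) with an adjusted p of 3.75e-05. Chrna7, a nicotinic receptor subunit, was at 0.0319 to 1.39 CPM (median 0.249) and 2.97 to 6.04 CPM (median 4.02). In Htr2a and Chrna7, both picked for a large fall, all 7 TRAP libraries lay below all 7 lysate libraries (9.66% of all genes).

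The remaining 12 of these genes were Pcdhga6 (-4.79), Cyp4x1 (-4.79), Folh1 (-4.38), Nudt12 (-4.24), Hectd2 (-3.87), Cdh19 (-3.83), Zfp939 (-3.83), Clvs1 (-3.73), Stk32a (-3.71), Tmem232 (-3.70), Abca8b (-3.68) and Cyp2s1 (-3.65), all as log2 folds. Folh1 encodes the astrocytic enzyme that releases glutamate from N-acetylaspartylglutamate, and its call (SE 1.58, adjusted p = 0.0284) was lost in 6 of 18 alternatives. Pcdhga6 shares 2119 exon bases with Pcdhgc4 on the same strand and Clvs1 shares 2302 with Asph, so that reads may have been credited to a neighbour. Zfp939 and Tmem232 were lower in 6 of 7 mice, and the other 13 of the 15 in 7 of 7. The 15 were picked for the size of their fall, so these counts of mice add no separate support.

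Marker genes of neurons and of the other glia were mostly lower in TRAP. Of 18 pan-neuronal genes 16 were lower and 0 higher (median -1.48), beside 34.6% of all genes called lower. Of 17 markers of excitatory neurons 14 were lower (-1.20), and of 16 of inhibitory neurons 15 (-1.46), with 0 higher in both. Snap25, a protein of the machinery for transmitter release, was at 828 to 4434 CPM (median 3358) in TRAP and 4252 to 12662 CPM (median 10726) in lysate, a log2 fold of -1.91 ± 0.19 (SE). Gad1, which makes GABA, was at 37.7 to 169 CPM (median 108) and 216 to 448 CPM (median 323), and the kinase subunit Camk2a at 109.7 to 264 CPM (median 160.2) and 236 to 794 CPM (median 354). The pan-neuronal list summed to 2954 to 7966 CPM in TRAP and 11694 to 18488 CPM in lysate, so that the precipitate was not free of neuronal mRNA. The route by which it came there was not tested.

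Of 15 astrocyte markers 13 were lower (median -0.93), of 12 markers of oligodendrocyte precursors 10 (-1.24), with 0 higher in both. Of 10 genes of ependyma and choroid plexus 4 were lower, near the 34.6% of all genes, 6 were not called and 0 were higher (median -1.22). The water channel Aqp4 was at 8.05 to 43.9 CPM (median 28.2) in TRAP and 36.7 to 79.8 CPM (median 67.6) in lysate, and Gfap, the astrocytic filament protein, at 27.0 to 46.8 CPM (median 31.7) and 61.3 to 122 CPM (median 84.0). Of 14 oligodendrocyte markers 12 were lower (median -1.51): the myelin lipid enzyme Ugt8a at 1.62 to 45.7 CPM (median 15.1) and 23.0 to 141 CPM (median 88.9).

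Trf, which encodes the iron carrier transferrin and is usually counted as an oligodendrocyte gene, was the 1 marker of that list on the TRAP side. It was at 1109 to 2893 CPM (median 1336) in TRAP and 226 to 637 CPM (median 379) in lysate, so that the groups did not overlap, and its log2 fold was 2.16 ± 0.15 (SE) with an adjusted p of 1.30e-07. Its exons share 2108 bases with the model Gm20425 on the same strand. Ugt8a, of the same list, fell in the same libraries.

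**Figure D3:**
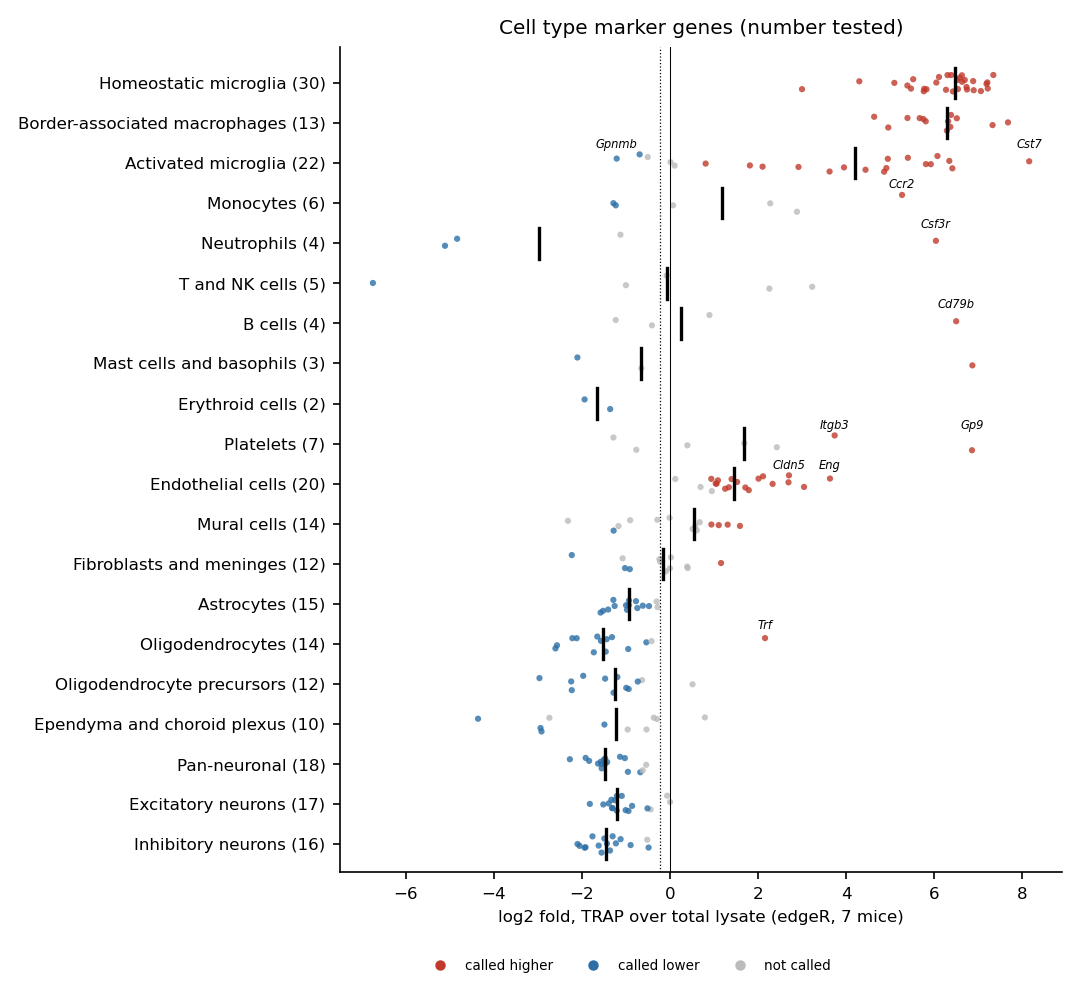
Log2 fold of TRAP over lysate for every tested member of 20 cell type marker lists, with the number tested in brackets, red for called higher, blue for called lower and grey for not called. Thick bars are list medians, the solid line is 0 and the dotted line the median of all genes (-0.22). The lists of homeostatic microglia and border-associated macrophages lie near 6, neuronal and glial lists below 0, endothelial genes above 0, and single members such as Trf, Gp9, Csf3r and Cd79b lie far from the rest of their lists.

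Endothelial genes were on the TRAP side, against their usual cell type. Of 20 endothelial markers 17 were higher in TRAP and 0 lower, with a median of 1.46 (per mouse 0.94 to 1.90) and a sum of 1374 to 4027 CPM in TRAP and 653 to 1012 CPM in lysate. Eng, a coreceptor for the TGF-beta family, was at 22.3 to 164 CPM (median 43.6) in TRAP and 1.66 to 14.1 CPM (median 5.53) in lysate, a log2 fold of 3.64 ± 0.17 (SE). Pecam1, an adhesion protein of vessel walls, was at 11.3 to 56.3 CPM (median 18.0) and 0.999 to 6.34 CPM (median 3.01) (3.05 ± 0.20 SE). The tight junction protein Cldn5 was at 12.3 to 227 CPM (median 65.0) and 2.48 to 25.3 CPM (median 10.7) (2.71 ± 0.16 SE), with overlapping groups although it was higher in 7 of 7 mice, and Ly6c1 at 94.2 to 337 CPM (median 173) and 18.1 to 41.4 CPM (median 29.2). With library totals 17 of the 20 were again higher, at a median of 0.97. All TRAP libraries lay above all lysate libraries in 7 of the 20, beside 16.3% of all genes. Of 14 mural genes 4 were higher, near the 30.8% of all genes, 1 was lower and 9 were not called (median 0.55). Vtn had a log2 fold of 1.59 ± 0.16 (SE), Abcc9 1.31, Higd1b 1.11 and Atp13a5 0.94 (calls lost in 3, 2 and 7 of 18 alternatives for the last 3 genes), against -1.28 for the smooth muscle gene Tagln. Of 12 fibroblast and meningeal genes 1 was higher, Foxc1 (1.16), and 3 lower, Pdgfra (-2.23), Slc6a13 (-1.02) and Ptgds (-0.91). Whether endothelial mRNA came with the tag or without it was not tested.

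Single genes that elsewhere mark other blood cells were strongly enriched, while most other members of their lists were not called higher. Gp9, a chain of the platelet receptor for von Willebrand factor, was at 18.3 to 90.3 CPM (median 40.0) in TRAP and 0.0834 to 1.02 CPM (median 0.346) in lysate, a log2 fold of 6.86 ± 0.37 (SE) with an adjusted p of 1.24e-08. The integrin chain Itgb3 of the same list was at 28.6 to 79.2 CPM (median 46.9) and 2.32 to 5.71 CPM (median 3.47). The other 5 of the 7 platelet genes tested, which include Gp1ba, Gp1bb and Itga2b, were not called. The median of the 7 was still on the TRAP side, at 1.69 (per mouse 0.62 to 2.74). Cd79b, a signalling chain of the B cell receptor, was at 23.0 to 76.6 CPM (median 43.7) and 0.240 to 1.06 CPM (median 0.468), a log2 fold of 6.50 ± 0.24 (SE). In contrast Cd79a, its partner chain, had a mean of 0.164 CPM in TRAP and 0.185 CPM in lysate and was not called, and the B cell genes Ms4a1, Pax5 and Blk had no count in any TRAP library.

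Csf3r, the receptor of a growth factor for neutrophils, was at 51.0 to 226 CPM (median 128) in TRAP and 0.772 to 3.92 CPM (median 2.14) in lysate, a log2 fold of 6.04 ± 0.28 (SE) with an adjusted p of 3.82e-09. The neutrophil genes S100a8 and S100a9 were on the lysate side at log2 folds of -4.83 and -5.10, with means of 0.103 and 0.102 CPM in TRAP against 1.20 and 0.451 CPM in lysate. Their groups overlapped, and of the neutrophil list 0 genes were called lower in cohort 2 alone and 1 without the mouse block. Another 4 genes of that list had no count in TRAP. Ccr2, a receptor of monocytes, was at 3.23 to 15.7 CPM (median 5.54) against 0 to 0.585 CPM (median 0.189) (5.27 ± 0.66 SE), the 1 higher gene of 6 monocyte genes tested, while Nr4a1 (-1.28) and Ace (-1.23) were lower and Chil3 had no count in TRAP. Of 5 tested genes of T and NK cells 0 were higher, and the T cell receptor chains Cd3d, Cd3e and Cd3g had means of 0 to 0.128 CPM in TRAP. Red cells could not be followed through globins, since all 4 globin genes of the list were at 0 in all 14 libraries.

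Genes of ion channels and transmitter receptors were on the lysate side with a few exceptions. Of 82 potassium channel genes 53 were lower (64.6%) and 6 higher (7.32%), with a median of -1.24, beside 34.6% and 30.8% of all genes. Kcnk6, a 2-pore channel known as TWIK2, was at 160.4 to 231 CPM (median 214) in TRAP and 1.25 to 6.08 CPM (median 3.37) in lysate, a log2 fold of 6.11 ± 0.28 (SE). Kcnk13, known as THIK-1 and responsible for the resting potassium current of microglia, was at 38.2 to 83.3 CPM (median 65.6) and 7.78 to 15.7 CPM (median 10.9), a log2 fold of 2.57 ± 0.20 (SE). Kcnn4 (4.76), a calcium-activated channel, and Kcnd1 (2.30) were higher too. Among the largest falls of the list at 1 CPM or more were Kcnt2 (-3.31), Kcnj9 (-2.54) and Kcnh5 (-2.46).

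Of 36 sodium and calcium channel genes 23 were lower (63.9%) and 2 higher (5.56%), beside 34.6% and 30.8% of all genes. The higher one above 1 CPM was Cacna1s, the calcium channel of skeletal muscle. It was at 2.91 to 8.94 CPM (median 6.24) in TRAP and 0.101 to 1.08 CPM (median 0.398) in lysate, a log2 fold of 3.94 ± 0.41 (SE), and its exons share 1212 bases with the model Gm37759. Of 34 ionotropic glutamate and GABA-A receptor genes 30 were lower (88.2%) and 0 higher (median -1.90). Among the lower ones were Gria4 (-2.83), Gabra4 (-2.66) and Gabrg1 (-2.63). Of 45 metabotropic receptor genes 33 were lower (73.3%) and 3 higher (6.67%). Among the 3 were Hrh2 (1.28), a histamine receptor, and Adrb1 (1.25), an adrenergic receptor. Chrm2 (-5.83), Htr2a, Htr1f (-2.60) and Grm7 (-2.40) were the largest falls at a mean of 1 CPM or more.

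The families of vesicle fusion and adhesion split by member in the same way. Of 67 synaptic vesicle and SNARE genes 41 were lower (61.2%) and 13 higher (19.4%), with a median of -1.06, beside 34.6% and 30.8% of all genes. Syngr2, the synaptogyrin of cells other than neurons, was at 265 to 867 CPM (median 399.6) in TRAP and 4.98 to 15.8 CPM (median 6.15) in lysate (5.94 ± 0.17 SE). Vamp8, a SNARE of endosomes and lysosomes, was at 421 to 543 CPM (median 477) and 14.8 to 29.4 CPM (median 21.6) (4.47 ± 0.16 SE), whereas the synaptic SNARE Vamp2, named after its values were seen, was at 551 to 770.1 CPM (median 663) and 669 to 1213 CPM (median 838) (-0.51 ± 0.15 SE, adjusted p = 0.0105). Stx2 (2.89) and Vamp5 (2.82) were higher, and Syt16 (-2.34), Rims1 (-2.18) and Syt2 (-2.16) lower.

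Of 83 protocadherins and cadherins 70 were lower (84.3%) and 2 higher (2.41%), with the lowest median of any family, -2.21. Cdh23, the cadherin of tip links in the inner ear, was at 7.89 to 44.1 CPM (median 12.1) in TRAP and 0.125 to 0.643 CPM (median 0.282) in lysate (6.01 ± 0.32 SE), and the other higher member was Cdh5 (2.01), an endothelial gene. Clustered protocadherins share exons, so single members such as Pcdhga8 (-5.67), Pcdhb11 (-4.37) and Pcdhb10 (-3.87) are uncertain. Of 31 semaphorins, plexins and neuropilins 8 were higher (25.8%) and 19 lower (61.3%), beside 30.8% and 34.6% of all genes. Plxnb2 was at 109 to 699 CPM (median 217) in TRAP and 7.39 to 36.9 CPM (median 11.8) in lysate, and Nrp1, a receptor shared by semaphorins and VEGF, at 141 to 265 CPM (median 195) and 21.9 to 27.6 CPM (median 25.4). Sema4g (2.37) and Sema4b (2.25) were higher, while Sema3d (-3.86), Sema3a (-2.50), Sema3e (-2.09) and Sema3b (-2.02) were lower, the last in a call lost in 8 of 18 alternatives.

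F11r, the tight junction protein JAM-A, had a log2 fold of 5.98 ± 0.13 (SE), with 368 to 663 CPM (median 582) in TRAP and 6.86 to 10.5 CPM (median 9.12) in lysate. In its list 7 of 18 genes were higher (38.9%) and 5 lower (27.8%), near the 30.8% and 34.6% of all genes. Besides Cldn5, the higher ones included Marveld2 (2.71) and Tjp1 (1.45), and the lower ones Cldn10 (-1.58), Cldn12 (-1.39) and Jam3 (-0.72). Of 24 integrins 10 were higher (41.7%) and 6 lower (25%), beside 30.8% and 34.6% of all genes. Itgb2 (6.72) and Itgam (6.27), which together form complement receptor 3, led, although Itgam shares 3450 exon bases with the model Gm49368 on the same strand, and Itgb5 reached 779 to 4570.0 CPM (median 1628) in TRAP against 18.5 to 76.6 CPM (median 30.0). Among the lower ones were Itga8 (-1.98), Itga7 (-1.70) and Itgb8 (-1.06).

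Of 48 collagens and laminins 17 were lower, near the 34.6% of all genes, and 4 higher, below the 30.8%. Col27a1, a collagen of cartilage, was at 3.08 to 23.0 CPM (median 12.5) in TRAP and 0.0192 to 1.05 CPM (median 0.199) in lysate (5.65 ± 0.40 SE), followed by Col15a1 (5.51), Col6a3 (3.46) and Col14a1 (2.98), whose call was lost in 10 of 18 alternatives. Col6a2 (-3.11) and Col6a1 (-2.13), whose products assemble with that of Col6a3 into 1 collagen, were on the lysate side, as was Lama2 (-2.14). Of 26 tetraspanins 13 were higher (50%) and 10 lower (38.5%), beside 30.8% and 34.6% of all genes. Their median was 0.47, and -0.020 with library totals. The leukocyte members Tspan32, Cd37 (7.19) and Cd53 (6.70) were highest, and among members at a mean of 1 CPM or more Tspan6 (-2.22), Tspan2 (-1.87), Tspan11 (-1.48) and Tspan15 (-1.27) were lowest. Cd53 was at 906 to 2796 CPM (median 1773) in TRAP and 6.23 to 28.3 CPM (median 24.3) in lysate.

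**Figure D4:**
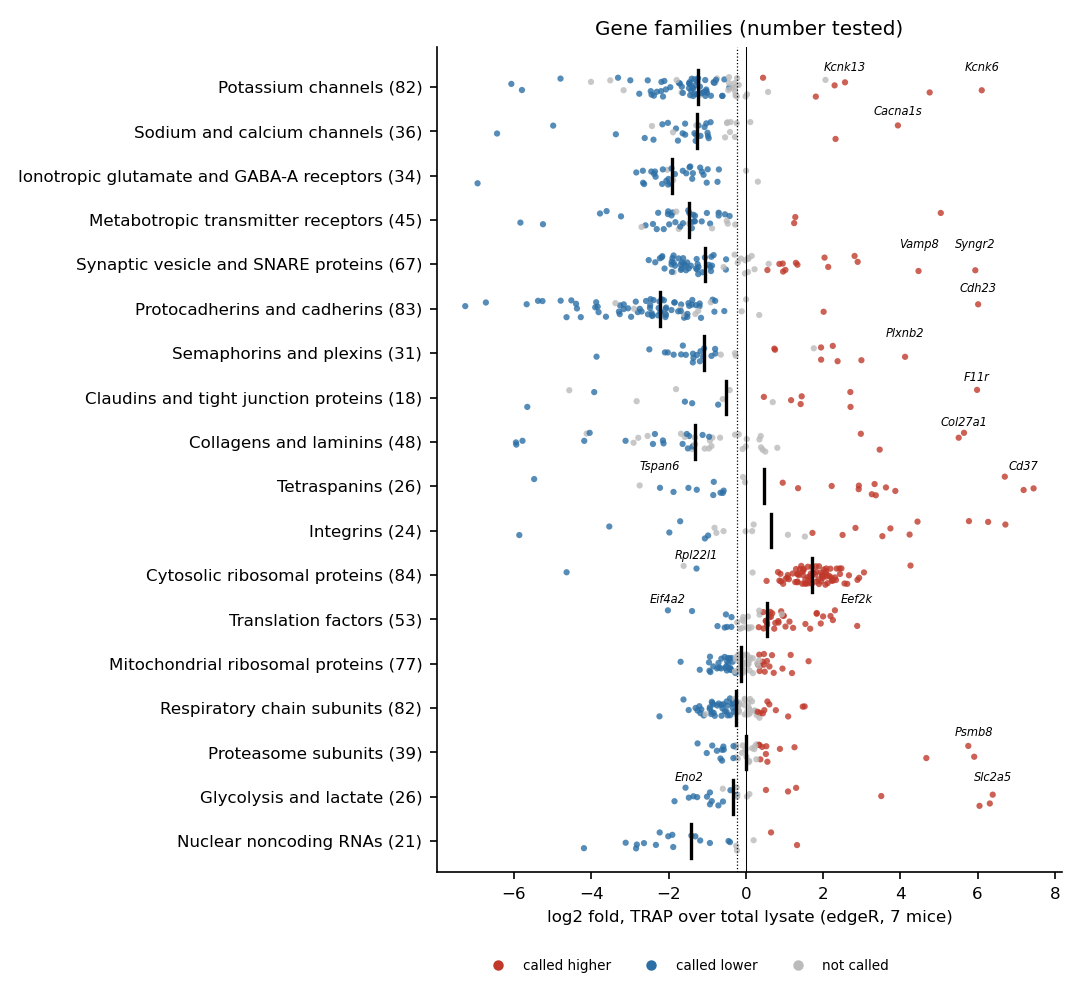
Log2 fold of TRAP over lysate for the tested members of 18 gene families, with the number tested in brackets, colours and bars as in the plot of cell type markers. In families of neuronal excitability most points lie left of 0 and a few named genes, such as Kcnk6, Syngr2, Cdh23 and F11r, lie between 4 and 7, while ribosomal protein genes form a compact group near their median of 1.73.

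The translation machinery itself was unevenly represented. Among the 84 proteins of the cytosolic ribosome that were tested, TRAP was higher for 80 mRNAs (95.2%) and lower for 2 (2.38%). These shares stand beside 30.8% and 34.6% of all genes. The median of the 84 was 1.73, ranged from 1.33 to 2.25 in single mice and was 1.24 with library totals. Their sum was 28848 to 49033 CPM in TRAP and 8458 to 12072 CPM in lysate. Rps4x was at 497 to 1128 CPM (median 739) in TRAP and 82.5 to 121 CPM (median 103) in lysate. The paralogue Rpl39l had the largest log2 fold (4.26 ± 0.77 SE) at a low level, and Rpl22l1, a paralogue of Rpl22, went the other way at 17.2 to 209 CPM (median 136) against 28.6 to 562 CPM (median 413) (-1.28 ± 0.25 SE). Many ribosomal protein genes have near-identical pseudogenes, and how reads that map to several places were counted is not given in the sources used here.

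Of 53 translation factors 31 were higher (58.5%) and 8 lower (15.1%), with a median of 0.55, beside 30.8% and 34.6% of all genes. Eef2k, the kinase that holds back elongation, led at 71.8 to 163 CPM (median 92.6) in TRAP against 8.70 to 20.4 CPM (median 16.3) (2.88 ± 0.15 SE), with Eef1a1 (2.31), Eef1d (2.25) and Eif3f (2.19). The helicase paralogues parted: Eif4a2 was at 62.7 to 228 CPM (median 166) in TRAP and 236 to 996 CPM (median 610.3) in lysate (-2.02 ± 0.14 SE), while Eif4a1, named after its values were seen, was at 86.0 to 143 CPM (median 121) and 62.7 to 95.5 CPM (median 74.1) (0.61 ± 0.14 SE). Eif5a2 (-1.39), Eif2s1 (-0.73) and Eef1e1 (-0.55) were lower too.

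Mitochondrial proteins did not share the enrichment of the cytosolic ribosome. Of 77 mitochondrial ribosomal protein genes 16 were higher and 27 lower (median -0.12), from 1.62 for Mrpl52 to -1.69 for Mrps22, beside 30.8% and 34.6% of all genes. Of 82 nuclear-encoded subunits of the respiratory chain 10 were higher and 37 lower (median -0.26). Cox7a2l, which helps assemble supercomplexes, was at 238 to 356 CPM (median 282) in TRAP and 94.7 to 107 CPM (median 102) in lysate (1.52 ± 0.11 SE), whereas Cox7b (-1.61 ± 0.16 SE) and Ndufa4 (-1.30) were lower. Both medians lay close to that of all genes tested, -0.22.

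Of 39 proteasome subunits 12 were higher and 11 lower, shares close to or below those of all genes (30.8% and 34.6%), and the median was 0.02, below 0 with library totals (-0.47), with upper-quartile factors (-0.19) and with RLE factors (-0.018). With library totals 5 were higher and 22 lower. The balance also differed between cohorts, with 8 higher and 19 lower (median -0.24) in cohort 1 alone and 13 higher and 2 lower (median 0.29) in cohort 2 alone, a difference that was not tested for the list. Psmb8 and Psmb9, catalytic subunits of the immunoproteasome, which favours peptides for MHC class I, were at 237 to 606 CPM (median 314) and 70.8 to 139 CPM (median 97.8) in TRAP against 5.09 to 8.51 CPM (median 5.48) and 1.39 to 2.11 CPM (median 1.82) in lysate. Their log2 folds were 5.91 ± 0.19 (SE) and 5.76 ± 0.19 (SE). Psmb10, the third immune subunit, had a log2 fold of 1.26 ± 0.14 (SE), and Psma8, known from testis, 4.67 ± 0.66 (SE). Psmb5, which Psmb8 replaces and which was named after its values were seen, was at 55.6 to 141 CPM (median 67.5) and 64.3 to 121 CPM (median 76.3), a log2 fold of 0.02 ± 0.13 (SE) that was not called (adjusted p = 0.915). Psmd14 (-1.25), Psmc6 (-1.01), Psmc1 (-0.87) and Psma5 (-0.75) were lower.

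Genes of glycolysis and lactate transport split by isoform, with 7 of 26 genes higher and 13 lower (median -0.33). These shares were 26.9% and 50%, beside 30.8% and 34.6% of all genes. The hexokinases, which trap sugar in the cell, split: Hk2 was at 96.5 to 209 CPM (median 156) in TRAP and 1.23 to 3.12 CPM (median 2.37) in lysate (6.05 ± 0.26 SE), Hk3 at 16.9 to 112 CPM (median 30.5) and 0.129 to 1.50 CPM (median 0.471) (6.31 ± 0.33 SE), and Hk1, named after its values were seen, at 43.2 to 111 CPM (median 66.3) and 101 to 309.7 CPM (median 136) (-1.26 ± 0.18 SE). The fructose transporter Slc2a5 was at 278 to 639.8 CPM (median 391) in TRAP and 4.03 to 7.57 CPM (median 4.69) in lysate (6.39 ± 0.14 SE), and the neuronal glucose transporter Slc2a3 at 23.9 to 47.7 CPM (median 32.6) and 55.9 to 104 CPM (median 81.9) (-1.36 ± 0.16 SE). Slc16a3, a lactate exporter, was higher (3.50). Pfkp (-1.84), Pfkm (-1.56) and the neuronal enolase Eno2 (-1.47) were lower. In Hk2, Hk3 and Slc2a5 the 2 groups of libraries did not overlap. Of the 26 genes, all TRAP libraries lay above all lysate libraries in 4, beside 16.3% of all genes. They lay below them in 6, beside 9.66%.

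Nuclear noncoding RNAs were mostly on the lysate side. Of 21 tested, 16 were lower (76.2%) and 2 higher (9.52%), beside 34.6% and 30.8% of all genes. Their median was -1.41. The 2 higher ones were Snhg8 (1.33 ± 0.14 SE) and Gas5 (0.65 ± 0.14 SE), hosts of small nucleolar RNAs that end in the cytoplasm. Gas5 was at 135 to 470.4 CPM (median 261) in TRAP and 91.5 to 262 CPM (median 205) in lysate. Miat was at 0.183 to 3.19 CPM (median 2.70) and 5.62 to 28.1 CPM (median 9.27) (-2.84 ± 0.41 SE), Snhg11 at 7.93 to 34.2 CPM (median 16.3) and 103 to 153 CPM (median 117) (-2.82 ± 0.20 SE), and Dlx6os1 (-2.63) and Rian (-2.33) were lower as well. The lower members named here are known from neurons, so that the cell of origin and the place in the cell cannot be told apart in this comparison.

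Growth factors were divided between the fractions, 7 of 29 higher and 17 lower (median -0.78). These shares were 24.1% and 58.6%, beside 30.8% and 34.6% of all genes. Besides Tgfb1, TRAP was enriched in Pros1 (4.77 ± 0.19 SE) and Gas6 (2.34 ± 0.14 SE), which bridge dying cells to the phagocytic receptor Mertk, and in Pdgfb (2.10 ± 0.14 SE). Pros1 was at 179.8 to 305 CPM (median 232) in TRAP and 6.71 to 13.3 CPM (median 7.36) in lysate. On the lysate side were Hgf (-3.71), Tgfb3 (-2.42) and Nrg3 (-1.43). Tgfb1 and Tgfb3, products of the same family, therefore lay on opposite sides.

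Whether the contrast of TRAP with lysate differed between the cohorts was tested as an interaction within the edgeR fit. It was called for 44 genes (0.277% of 15867), 11 higher in cohort 2 (0.0693%) and 33 lower (0.208%). Of the 33, 30 were called lower in TRAP and 1 higher, beside 34.6% and 30.8% of all genes, and of the 11, 2 were lower and 6 higher. Over all genes, 2778 had an unadjusted p under 0.05. Those counts rested on the choice of mice: without replicate 1, a male of cohort 2, 46 and 231 genes were called, and without any of the other 6 mice 1 or 2 higher and 0 or 1 lower.

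Kalrn, which encodes a regulator of actin at dendritic spines, kept its call in each of the 10 alternative fits of this interaction. It lies at chr16:33969073-34573532. Its TRAP level was 41.1 to 90.5 CPM in the 4 mice of cohort 1 and 1179 to 1832 CPM in the 3 of cohort 2, while its lysate level was 72.5 to 80.0 and 75.0 to 85.9 CPM. The difference of the log2 folds was 4.75 ± 0.31 (SE) with an adjusted p of 2.54e-04, and cohort 1 alone gave a log2 fold of -0.49 (adjusted p = 0.0605) against 4.29 (adjusted p = 6.95e-07) in cohort 2 alone. In the rotarod mice, which the test did not use, TRAP libraries of cohort 1 held 32.7 to 70.6 CPM by library total and those of cohort 2 1377 to 2285 CPM, against 56.6 to 109 CPM in their lysates. Ubr3, a ubiquitin ligase gene, was at 36.9 to 79.3 CPM in TRAP of cohort 1 and at 224 to 393 CPM in that of cohort 2 (difference 3.15 ± 0.46 SE, adjusted p = 0.0397), a call lost in 5 of the 10 fits.

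Lyz2 (1.19 ± 0.16 SE), Fcgr3 (1.17 ± 0.17 SE) and Stxbp2 (2.19 ± 0.32 SE) were also more enriched in cohort 2, with an adjusted p of 0.0397 each. The calls of Lyz2 and Fcgr3 were lost in 6 of the 10 alternative fits, without any 1 of the mice other than replicate 1, and that of Stxbp2 in 5. For the Fc receptor Fcgr3, TRAP held 1332 to 1720.0 CPM in cohort 1 and 1984 to 2075 in cohort 2, and lysate 28.5 to 36.7 and 17.8 to 20.0. The neuronal genes Nptx1 and Ndrg4 were more depleted in cohort 2. Nptx1, a pentraxin of excitatory synapses, was at 83.4 to 119 CPM in TRAP of cohort 1 and 33.4 to 34.5 in cohort 2, with 151 to 204 and 229 to 233 in lysate (-1.92 ± 0.18 SE, adjusted p = 0.00598). Ndrg4 differed by -1.31 ± 0.17 (SE) and Arfgef3 by -2.24 ± 0.29 (SE). The calls of Ndrg4 and Arfgef3 were lost in 6 of the 10 fits, again without any 1 of the mice other than replicate 1, and that of Nptx1 in 3, without replicate 2, 4 or 6. The base composition of the libraries also moved with the cohort: across genes, the deviation of a TRAP library from the mean of all 7 had a Spearman correlation with GC content of -0.56 to -0.49 in cohort 1 and 0.48 to 0.67 in cohort 2, and in lysate of -0.73 to -0.58 and 0.59 to 0.80. The cohort difference of the folds itself correlated with GC content at -0.18 over 15713 genes, which are not independent replicates.

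**Figure D5:**
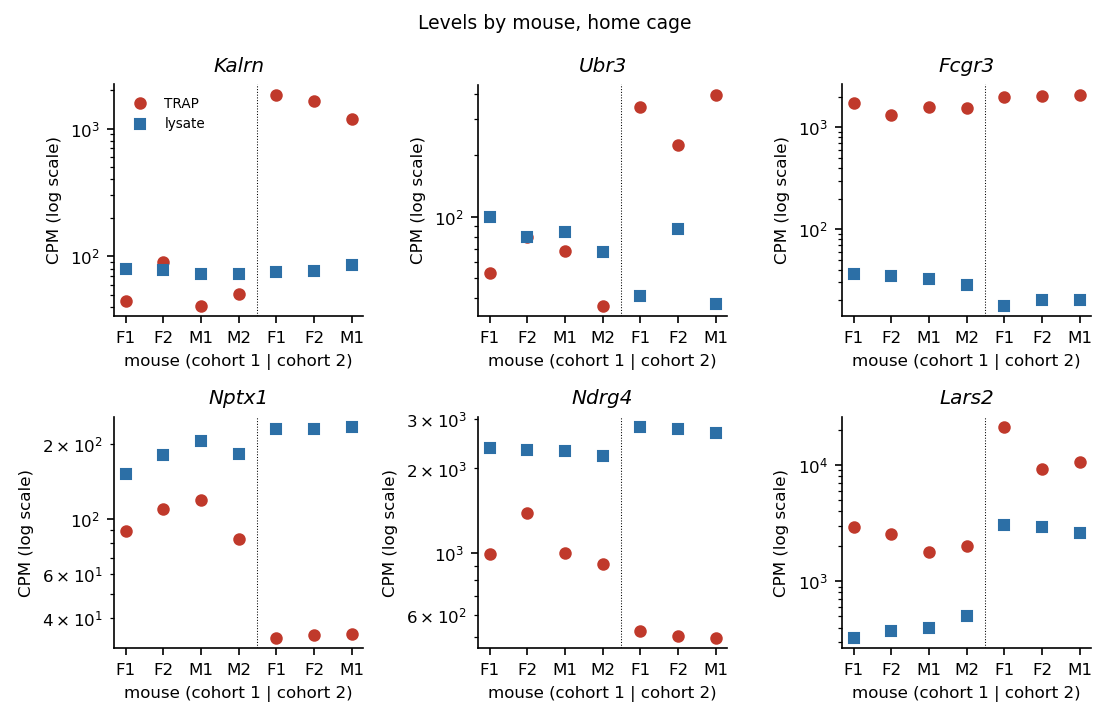
CPM of 6 genes on log axes in TRAP (red circles) and lysate (blue squares) of each mouse (F, female, M, male), with cohort 1 left and cohort 2 right of the dotted line. Kalrn and Ubr3 are raised in TRAP of cohort 2, Nptx1 and Ndrg4 are lower there, and Lars2, chosen after its values were seen, is raised in cohort 2 in both fractions.

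The difference between sexes was called for 1 gene, Zfp85 (0.00630% of genes tested), with 2814 genes at an unadjusted p under 0.05. Zfp85, a zinc finger gene whose exons share 166 bases with Zfp85os on the opposite strand, was at 2.33 to 5.08 CPM in TRAP of the 4 females and 8.16 to 22.6 CPM in that of the 3 males, while its lysate levels overlapped, at 3.62 to 31.4 and 2.30 to 19.8 CPM. The difference of the log2 folds, males minus females, was 2.72 ± 0.27 (SE) with an adjusted p of 0.0296. Leaving out any 1 of the 7 mice ended the call, with adjusted p-values from 0.0817 to 0.255.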

How the data were processed

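Poly(A) RNA was isolated with an RNeasy kit and libraries were made with Nextera XT, per the labels' protocols. The authors deposited raw counts per gene symbol, whole numbers without normalisation. The submitters' processing notes name STAR 2.7.7a, featureCounts and DESeq2, with GRCm38 as the genome build. Which annotation was used, whether strand was read and how multimapping reads were counted were not given in the sources used here. Mitochondrially encoded genes were not analysed here. Groups, sex, cohort and mouse come from the titles, and columns without a cohort mark were taken as cohort 1.

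From the counts, edgeR 4.0.16 (R 4.3.3) with TMM factors and filterByExpr fitted a quasi-likelihood model with each mouse as a block, and p-values were adjusted by Benjamini and Hochberg over all tested genes. TRAP and lysate were paired by mouse, since the titles give both libraries of a mouse 1 name. Their deviations from the group means correlated at 0.52 to 0.79, over 0.1 in 7 of 7 mice. The means were taken over both cohorts, so libraries of the same cohort share part of that deviation. These correlations therefore cannot check the pairing within a cohort. In 5 of 7 mice the TRAP library correlated best with the lysate of its own mouse. No pair of libraries agreed within sampling noise (lowest chi-square per degree of freedom 77.4). The 7 mice of a group are separate animals per the titles. Exon lengths and overlaps come from GENCODE vM21, and promoters from RefSeq. There 37 of 53 searched genes had an entry that was kept, with those on the chromosome of Csf1r left out. Counts carry no molecular identifiers, so the depth bounds counting error only. The functions were tested on simulated counts with known changes in 50 genes per size of fold. Of 2-fold changes, the test of TRAP against lysate recovered 38%, and the cohort and sex tests recovered 0% each. Of 3-fold changes they recovered 72%, 32% and 28%. The simulation changed 200 genes per test and held no other difference between fractions or cohorts, while 65.4% of genes were called in the data. Its spread of counts came from the fit of TRAP against lysate in every test. An adjusted p depends on the share of changed genes, so the shares recovered are not the power of the reported tests. Small differences between cohorts or sexes could still go uncalled. Alternatives used DESeq2 1.42.0 and limma 3.58.1.

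Named genes are 5 markers, the 20 highest levels per length, the 15 largest called changes each way at 2 CPM, up to 4 called members per list and direction at 1 CPM, and the cohort and sex calls with the smallest p. Members, lists and rules were chosen with earlier results of these data known. The 51 lists are described by counts and medians, without a test of the list. Some genes that the rule selects are not reported here.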

Additional observations from a re-analysis of the deposited data

Results flagged for a closer look

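In 106 groups of 7 libraries (53 genes in TRAP and in lysate), 11 had 1 library apart from the rest by Dixon's criterion, which chance meets in about 1 of 20 groups. The second female of cohort 1 was that library in 7 of the 11. Her lysate was highest for Cst7 (0.346 CPM, next 0.136), Nlrp1a (0.288, next 0.0953), Fcgr4 (0.365, next 0.149), Cdh19 (14.2, next 7.00) and Abca8b (10.2, next 5.25), and her TRAP for Stk32a (4.05, next 1.38) and Tmem232 (6.95, next 2.03). The first female of cohort 1 was highest in lysate for H2-Ob (1.26, next 0.410). In TRAP the first male of cohort 1 was highest for Firre (2.33, next 0.498) and Hectd2 (2.10, next 0.631), and the second male for Nudt12 (1.29, next 0.453).

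The contrast of TRAP with lysate differed between cohorts, tested as an interaction in edgeR and given as the log2 fold of cohort 2 minus that of cohort 1. The differences with the smallest p were Kalrn 4.75, Ubr3 3.15, Stxbp2 2.19, Lyz2 1.19 and Fcgr3 1.17 upward. Downward they were Clec4a1 -6.10, Arfgef3 -2.24, Nptx1 -1.92, 2010300C02Rik -1.52 and Ndrg4 -1.31. The value for Clec4a1 rests on 2 lysate reads in cohort 1 against 168 in cohort 2. Its TRAP over lysate ratio in cohort 1 was 6023 with a counting interval of 1667 to 49740 (95%, exact, counting error only), so that the fitted difference is not a size to rely on. For Stxbp2 TRAP held 23.7 to 32.7 CPM in cohort 1 and 81.8 to 96.3 in cohort 2, and for 2010300C02Rik the lysate held 72.1 to 95.0 and 171 to 234 while TRAP held 22.8 to 25.9 and 20.3 to 22.2. Between sexes, males minus females, Zfp85 differed by 2.72.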

How the results depend on the processing

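The counts of genes higher and lower in TRAP stayed within 1.5 times of the reported 4893 and 5489 with DESeq2, limma-voom, RLE and upper-quartile factors, library totals, other filters, either cohort alone and every mouse left out (4592 to 4809 higher and 4871 to 5291 lower). A test against a 2-fold change (glmTreat) called 2582 higher and 1899 lower. Without the replicate block, with cohort as a covariate in place of the pairing by mouse, 5132 were higher and 5418 lower, and the cohort difference called 124 and 413 genes in place of 11 and 33, and the sex difference 0 in place of 1. With limma-voom the cohort difference called 105 and 337 and the sex difference 46 and 37, and with RLE factors 21 were lower in cohort 2. With 1 mouse left out, the cohort difference called 1 to 46 higher and 0 to 231 lower, and the sex difference 0 higher.

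Some directions turned. The positive median of monocyte genes was -0.58 at 1 CPM, -0.47 in cohort 1, -0.11 without replicate 2 (like 3, a female of cohort 2) and -0.03 without replicate 3 (leaving out 1 mouse, -0.11 to 2.93). Neutrophil genes turned to 2.46 at 1 CPM. Purinergic genes turned with library totals (-0.10) and without a filter (-0.17), and tetraspanins likewise (-0.020 and -0.032). Tight junction genes turned at 1 CPM (0.93), in cohort 1 (0.30), with limma-voom (0.069), without the replicate block (0.037) and without replicate 4, a female of cohort 1 (0.29, the other mice down to -0.64). Srebf1 was -0.067 with library totals, Kalrn -0.49 and Ubr3 -0.53 in cohort 1, and Zfp85 0.078 in cohort 2. Psmb5, not called, was -0.18 in cohort 1, -0.018 with DESeq2, -0.47 with library totals, -0.018 with RLE factors, -0.19 with upper-quartile factors, -0.04 without replicate 2 and -0.060 without replicate 3 (leaving out 1 mouse, -0.060 to 0.080). The causes were not tested. Folds of genes near 0 CPM in 1 fraction are limited by depth.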

Other observations

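Immediate early genes, which are transcribed within minutes of a stimulus, were divided between the fractions in mice that had not run. Of 23 tested, 10 were higher in TRAP (43.5%) and 11 lower (47.8%), beside 30.8% and 34.6% of all genes. Atf3, a stress-induced factor, was at 5.80 to 14.0 CPM (median 8.59) in TRAP and 0.229 to 0.643 CPM (median 0.469) in lysate (log2 fold 4.24 ± 0.37 SE), and Klf4 (3.20), Btg2 (2.75) and Klf2 (2.45) were higher too. The activity genes of neurons were on the lysate side: Npas4 was at 0.108 to 1.88 CPM (median 0.447) and 1.99 to 7.63 CPM (median 3.96) (-3.04 ± 0.59 SE), Egr1 at 61.0 to 188 CPM (median 85.8) and 269.7 to 407 CPM (median 364) (-1.72 ± 0.17 SE), and Arc (-1.70) and Fos (-1.62) were lower as well.

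Of 56 Rab GTPase genes, which direct membrane traffic, 21 were higher in TRAP (37.5%) and 23 lower (41.1%), near the 30.8% and 34.6% of all genes. Their median was 0.09, and it was -0.40 with library totals and -0.11 with upper-quartile factors. Rab32, of lysosome-related organelles, was at 89.1 to 243 CPM (median 162) in TRAP and 1.79 to 12.2 CPM (median 7.19) in lysate (5.03 ± 0.27 SE), with Rab20 (6.96), Rab19 (7.09) and Rab27a (3.66) also higher. Rab9b (-2.74), Rab37 (-2.33), Rab26 (-2.13) and Rab39b (-2.09) were lower. Of 23 genes of sterol and fatty acid synthesis 14 were lower and 1 higher. The 1 higher gene was Srebf1, a regulator of lipid synthesis, by 0.42 ± 0.17 (SE), a call lost in 13 of 18 alternatives, scalings, filters, tools and left-out mice among them. Lars2, chosen after its values were seen, was at 1800.1 to 2901 CPM in TRAP of cohort 1 and 9295 to 21036 in cohort 2, and at 326 to 503 and 2593 to 3026 in lysate, and Mir6236 showed the same split, and the fold of TRAP over lysate differed between cohorts by -0.36 ± 0.32 (SE) for Lars2 and -0.51 ± 0.46 (SE) for Mir6236, with edgeR adjusted p-values of 0.642 and 0.645.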
